A study of Caenorhabditis elegans with 4 samples.

Results

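The regions described here are the places along chromosome III of Caenorhabditis elegans where chromatin immunoprecipitation with sequencing (ChIP-seq) found the transcription factor MML-1. They were chosen by position and by the authors' own ranking, in 3 deposited peak lists: all 48 peaks on III in the combined list, and the peaks on III with a peak number of 3000 or lower in each ChIP replicate list. That gave 420 peaks in replicate 1 and 386 in replicate 2, so 854 of 60396 listed peaks in all. The peak number is the authors' rank within a replicate list, with 1 first, and the remaining 3832 and 3629 rows on III served as background. The authors' score was tied at its highest value for 39 of the first-3000 peaks on III in replicate 1, up to number 259, and for 55 in replicate 2, up to number 427. Among these, a difference in number is one of order in the list and was not matched by a difference in score. Because peak number chose the replicate peaks, every contrast by number is a description and carries no test. The peaks just inside the limit were numbers 2993 and 2997 in replicate 1 and 2996 and 2997 in replicate 2, and those just outside were 3007 and 3011, and 3001 and 3002. Of these, 1 of the inner pair and neither of the outer pair overlapped the other list in replicate 1, against both and 1 in replicate 2.

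The 4 samples, 2 ChIP and 2 input, were all L3 hermaphrodites of strain OP198, raised at 20 °C. These worms carry the allele unc-119(ed3) and the transgene wgIs198, in which mml-1 is fused to TY1, EGFP and FLAG tags at its C terminus and unc-119 serves as marker. Input and ChIP samples thus share the mutation and the transgene, which was introduced by bombardment. Whole larvae were used, which mixes all tissues, and GFP antibodies recovered the tagged protein, so the lists describe the tagged protein and not the untagged one. RefSeq's gene table for the assembly WBcel235 places both mml-1 and unc-119, the genes the transgene carries, on chromosome III. The peak lists use another build, WormBase WS220, so which peaks lie at those genes was not tested, and reads from transgene copies cannot be told apart from reads of the chromosome itself. Replicates 1 and 2 are numbered by their labels, which do not state that they were separate cultures. Their spread may thus be technical.

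MML-1 is the worm member of the Mondo family, basic helix-loop-helix leucine zipper proteins that pair with a Max-like partner, MXL-2 in the worm, and bind DNA at E-box sequences. Mondo proteins in mammals respond to glucose and related sugars and control metabolic genes, and in the worm MML-1 is known for its part in the long life of animals that lack a germline. Worm autosomes have a central part that is dense in genes and recombines little, flanked by arms with more repeats and more recombination. Here the left arm, centre and right arm are simply equal lengths, each 33.3% of the listed span of III, from 323 to 13780533, with edges at 4593727 and 9187130. No gene is named for any peak, since no annotation of WS220 was used.

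Chromosome III carried about as many peaks as its length. It made up 13.8% of the summed spans of the 6 chromosomes and held 12.1% of the combined peaks (95% interval 9.07 to 15.7%). It held 14.0% of the first 3000 peaks of replicate 1 (12.8 to 15.3%) and 12.9% of those of replicate 2 (11.7 to 14.1%). The rows with higher numbers gave 14.2% and 13.4%. All intervals given with shares are 95% Clopper-Pearson (exact binomial) ones. They cover counting error only and treat neighbouring peaks as independent. The 48 combined peaks had a median width of 296 bp, from 8 to 1119 bp, and together covered 0.112% of III. The replicate peaks were of 1 width, 504 bp for 417 of 420 in replicate 1 and 520 bp for 383 of 386 in replicate 2. The 3 narrower peaks in each list were numbered 37 or lower in replicate 1 and 17 or lower in replicate 2.

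Few combined peaks had very small q-values. For combined peaks, strong and weak refer here to the q-value, since the lists give no read counts. Of the 48 combined peaks, 4 had a q-value below 1e-10, 15 below 1e-04 and 24 below 0.001. All q-values are those of the authors' peak caller. The share below 1e-04 was 31.2% on III, beside 34.8% over all chromosomes.

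The strongest region lay in the centre at 6897019 to 6898137, with q = 6.17e-59, and was ranked 9 in the combined list of all chromosomes. Replicate 1 had its peak number 9 there, at 6897582 to 6897899, and replicate 2 its peak number 10, at 6897629 to 6897888. These are the best-ranked III peaks of both replicates, and their midpoints lay 18 bp apart. The second region, at 9545760 to 9546312 in the right arm, had q = 9.45e-22 and peak numbers 22 and 16, with midpoints 9 bp apart. The left arm led with the region at 843988 to 844396, with q = 1.16e-18 and peak numbers 37 and 17, and midpoints 13.5 bp apart. These 3 regions thus took the first 3 places on III in every list, 1 in each part of the chromosome, and they are the places where the replicate lists give the narrower peaks.

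The next places differed more between lists, though scores on III were tied up to number 259 in replicate 1 and 427 in replicate 2. The region at 8658260 to 8658632 had q = 4.26e-11, with peak number 114 in replicate 1 and 27 in replicate 2. The adjacent region at 8655341 to 8655677 had q = 3.62e-09, with numbers 42 and 29. Both lie in 1 cluster in the centre, and in replicate 2 only the 3 leading regions ranked above them on III. In the left arm, the region at 4272820 to 4273259 had q = 6.69e-10 and peak numbers 185 and 54. The region at 4274370 to 4274830 in the same cluster had q = 4.17e-09 but only number 12044 in replicate 1 and 2104 in replicate 2. It was the strongest combined peak on III with no first-3000 peak in replicate 1, where peak number 102 lay 282 bp away. The region at 6898509 to 6898838, beside the strongest one, had q = 4.67e-06 and peak numbers 97 and 8355. The region at 8446895 to 8447250 had q = 1.03e-05 and stood at number 58 in replicate 1 but at 3032 in replicate 2, just past the limit. The last of the leading 10, at 3954334 to 3954523, had q = 1.18e-05 and peak numbers 162 and 71. So 7 of the 10 leading regions were numbered 185 or lower in both replicates, and the 3 others ran from number 2104 to number 8355 in replicate 2. Replicate 1 number 54, at 8801736 to 8802239, fell on a weaker combined peak from 8801752 to 8802191 (q = 0.000980), which had number 162 in replicate 2.

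**Figure D1:**
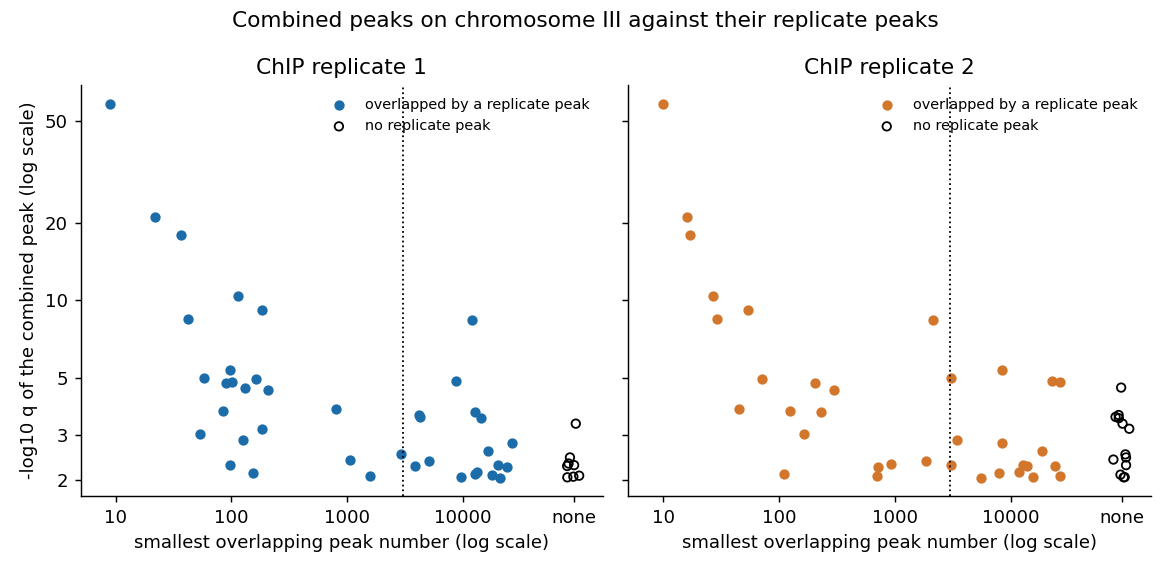
Each point is 1 of the 48 combined peaks on III, with −log10 of its q-value on a log axis (vertical) against the smallest number of any overlapping peak in ChIP replicate 1 or 2, also on a log axis (horizontal); open circles have no overlapping peak, and the dotted line marks number 3000. The points with the smallest q-values sit at the left in both panels, led by numbers 9 and 10, while peaks with q near 0.01 spread across the whole range of numbers.

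Across combined peaks, small q-values went with small peak numbers (Spearman rho = 0.64 over the 40 peaks matched in replicate 1 and 0.55 over the 35 matched in replicate 2). The points are peaks from the same experiments and share library and depth, so rho is a description. Peaks found in both lists of first-3000 peaks were mostly the strong ones. Of the 15 combined peaks with q below 1e-04, 9 overlapped a first-3000 peak in both replicates and 14 in at least 1. The exception was the peak at 6903857 to 6904174, with q = 1.39e-05 and numbers 8756 and 22440, whose edge lay 136 bp from replicate 1 peak number 234. Of the 33 weaker ones, 4 overlapped a first-3000 peak in both replicates and 18 in neither. Of the 7 combined peaks under 100 bp wide, 1 overlapped a first-3000 peak of either replicate, against 28 of the 41 wider ones. All 7 were among the weaker peaks, with q from 0.000492 to 0.00902. The parts of width and of q-value in this difference were not tested.

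Peaks were densest in the centre of III in both replicates. The 1 Mb bin from 6 to 7 Mb held 53 first-3000 peaks in replicate 1 and 47 in replicate 2, a mean density of 50.0 per Mb ± 4.24 (SD, n = 2). The next bin, from 7 to 8 Mb, held 43 and 49, a mean of 46.0 ± 4.24 (SD, n = 2). These bins differed from each other by less than the spread between replicates. The lowest densities were found from 1 to 2 Mb, with 16 and 11 peaks (mean 13.5 ± 3.54 per Mb, SD, n = 2), and from 11 to 12 Mb, with 16 and 15 (mean 15.5 ± 0.707 per Mb, SD, n = 2). In both replicates every bin from 4 to 10 Mb held more peaks than any bin from 1 to 4 Mb or to the right of 10 Mb. The left tip stood apart from the rest of its arm, with 30 and 33 peaks in the first 1 Mb (mean 31.5 ± 2.12 per Mb, SD, n = 2). Over the 14 bins, the counts of the 2 replicates ran together (Spearman rho = 0.96, a description), and they also followed the rows with higher numbers (rho = 0.80 in replicate 1 and 0.84 in replicate 2).

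The share of a bin's rows that were among the first 3000 takes that background into account. Over all of III it was 9.88% in replicate 1 and 9.61% in replicate 2. It was highest from 6 to 7 Mb in replicate 1, at 13.7%, and from 7 to 8 Mb in replicate 2, at 12.6%. It was lowest from 11 to 12 Mb in replicate 1, at 5.78%, and from 1 to 2 Mb in replicate 2, at 5.56%. The left tip reached 11.5% and 12.0%. In both replicates that was above the bins from 4 to 5, 5 to 6, 8 to 9 and 9 to 10 Mb. From 9 to 10 Mb the share was 9.86% and 8.85%, below that of all III. From 3 to 4 Mb it was 6.95% and 10.7%. By raw count, the bins from 4 to 10 Mb held more rows than any other bin both inside and outside the first 3000. The exception was the left tip, whose 33 first-3000 peaks in replicate 2 equalled the 33 from 9 to 10 Mb.

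**Figure D2:**
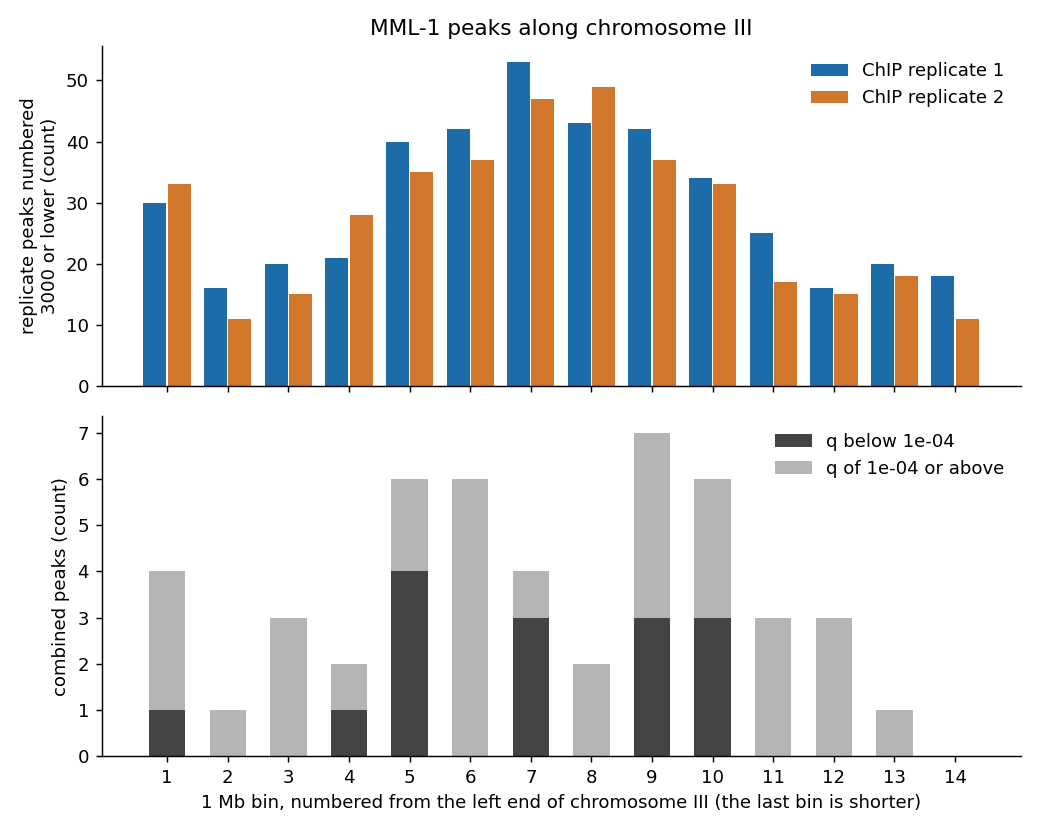
Peaks per 1 Mb bin, numbered from the left end of III: bars in the upper panel count the first-3000 peaks of each ChIP replicate, and bars in the lower panel count combined peaks, split by q-value. The replicate bars rise to 53 and 47 in bin 7 and fall to 16 and 11 in bin 2. The combined peaks are few per bin, from 0 in bin 14 to 7 in bin 9, with 6 each in bins 5, 6 and 10.

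The combined list did not peak in the same bins. Its largest count was 7, from 8 to 9 Mb, and the bins from 4 to 5, 5 to 6 and 9 to 10 Mb held 6 each. From 7 to 8 Mb, where both replicates were dense, it had 2 peaks, neither with q below 1e-04. The bin from 4 to 5 Mb held 4 peaks with q below 1e-04, more than any other bin.

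By arms, the centre held 201 of 420 peaks in replicate 1 (47.9%, 43.0 to 52.8%) and 188 of 386 in replicate 2 (48.7%, 43.6 to 53.8%), a mean of 48.3% ± 0.599 (SD, n = 2). The rows with higher numbers also lay more often in the centre than its 33.3% of the span, with a mean of 39.8% ± 1.32 (SD, n = 2). The left arm held 27.5% ± 1.11 of the first 3000 and 29.5% ± 0.684 of the rest, and the right arm 24.3% ± 1.71 and 30.7% ± 0.639 (mean ± SD, n = 2 each). With peaks within 10 kb counted as 1 locus, an alternative chosen after seeing the data, the centre share was 41.6%. The other autosomes had centre shares of 40.9 to 51.1% in replicate 1 and 41.4 to 50.1% in replicate 2, so III lay within their range. Of the combined peaks, 20 of 48 were in the centre (41.7%, 27.6 to 56.8%), 16 in the left arm and 12 in the right arm.

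The best-ranked peaks were scarce in the right arm. They are taken here as a top class, the replicate peaks whose number does not exceed the number of peaks in the combined list of all chromosomes. Of the 59 top-class peaks on III in replicate 1, 35 lay in the centre (59.3%, 45.7 to 71.9%), 18 in the left arm (30.5%) and 6 in the right arm (10.2%, 3.82 to 20.8%). Of the 50 in replicate 2, 28 lay in the centre (56.0%, 41.3 to 70.0%), 16 in the left arm (32.0%) and 6 in the right arm (12.0%, 4.53 to 24.3%). Among the last rows, numbered 20001 to 30000, the right arm held 32.8% in replicate 1 (30.4 to 35.3%) and 31.3% in replicate 2 (28.8 to 33.9%). The classes between did not change evenly with rank. From 397 to 1000 the right arm held 20.7% in replicate 1 (12.6 to 31.1%) but already 30.7% in replicate 2 (20.5 to 42.4%). From 1001 to 3000 it held 30.1% and 23.0%. In both replicates the intervals of the first and the last class did not overlap, either in the right arm or in the centre. In replicate 2, however, the top class ended within the run of tied scores, so its limit there is one of list order. Of the tied peaks just past it, numbers 400, 420 and 427 lay in the right arm and numbers 411 and 412 in the centre. Intervals with these peaks included were not tested. The left arm differed little between these classes, with 30.5% and 32.0% in the first class and 30.4% and 31.1% in the last. Since rank chose these classes and neighbouring peaks cluster, the shares are descriptions.

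**Figure D3:**
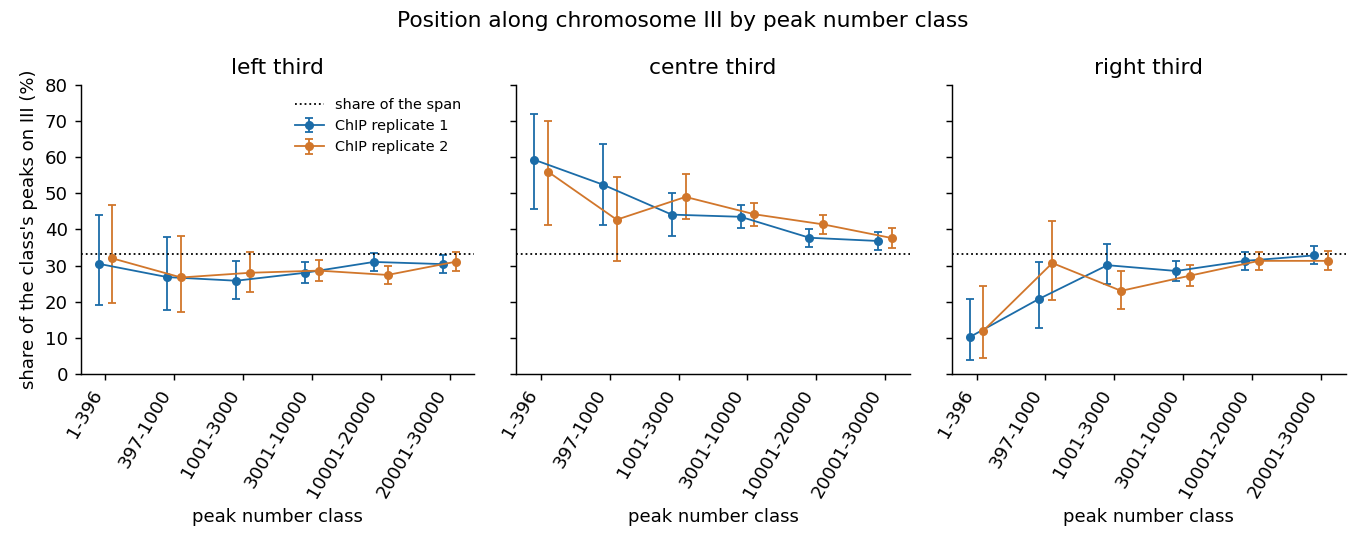
Share of the III peaks of each peak number class that lie in the left arm, centre and right arm (equal lengths), for ChIP replicates 1 and 2; bars are exact 95% intervals, and the dotted line is the 33.3% share by length. The centre holds 59.3% and 56.0% of the top class and 36.8% and 37.6% of the last class. The right arm holds 10.2% and 12.0% of the top class and 32.8% and 31.3% of the last. The classes between do not change evenly, and in replicate 2 the right arm is already at 30.7% in the class from 397 to 1000.

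The combined list thinned out in the same direction. The last combined peak with q below 0.001 ended at 9858543, and the remaining 3.92 Mb to its right held 7 combined peaks, with q from 0.00162 to 0.00910. That point was set after the values were seen. The same stretch held 82 first-3000 peaks in replicate 1, of which 2 were in the top class, and 63 in replicate 2, of which 3 were. The best of them were number 258 in replicate 1, at 13643379 to 13643882, and number 172 in replicate 2, at 10384818 to 10385337. Neither overlapped a first-3000 peak of the other replicate. Only 1 of the 7 combined peaks there, at 10224464 to 10225356 (q = 0.00854), overlapped a first-3000 peak in both replicates, numbers 1570 and 701, whose midpoints lay 1 bp apart.

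Many first-3000 peaks recurred in the other replicate, but fewer did so at a high rank. In replicate 1, 211 of 420 (50.2%, 45.4 to 55.1%) shared 1 bp or more with any replicate 2 row on III, beside 32.8% of the III rows with higher numbers. In replicate 2, 185 of 386 (47.9%, 42.8 to 53.0%) shared with a replicate 1 row, beside 35.6%. A match within the first 3000 of the other list was less common, at 59 peaks of replicate 1 (14.0%, 10.9 to 17.7%), beside 4.07%, and 58 of replicate 2 (15.0%, 11.6 to 19.0%), beside 5.21%. A combined peak was overlapped by 26 first-3000 peaks of replicate 1 (6.19%), beside 0.522% of the higher rows, and by 25 of replicate 2 (6.48%), beside 0.606%. The lists covered 14.3% and 13.7% of III, and the part of row density in these overlaps was not tested. Within a list, 12.9% of the first-3000 peaks of replicate 1 and 11.9% of those of replicate 2 overlapped another of the same list, and joining them left 393 and 363 separate stretches.

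Sharing rose with rank. Of the top-class peaks on III, 43 of 59 in replicate 1 (72.9%, 59.7 to 83.6%) and 34 of 50 in replicate 2 (68.0%, 53.3 to 80.5%) overlapped the other list. In the class from 1001 to 3000 the share was 43.7% in both, and in the last class 29.6% and 33.4%. Overlap with a combined peak dropped at once after the first class, from 35.6% to 1.22% in replicate 1 and from 32.0% to 5.33% in replicate 2.

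**Figure D4:**
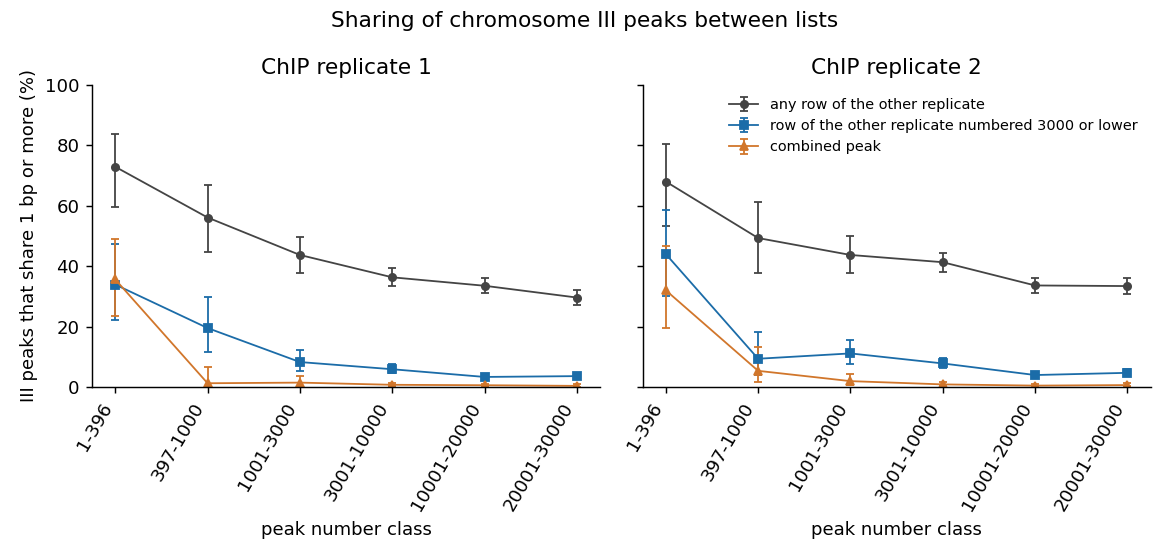
Share of III peaks in each peak number class that share 1 bp or more with any row of the other replicate, with a row of the other replicate numbered 3000 or lower, or with a combined peak; bars are exact 95% intervals. Every curve is highest in the top class, at 72.9% and 68.0% for any row, and the curve for combined peaks is near 0 from number 1001 onwards.

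Sharing also differed in level along the chromosome. In the centre, 37 of 201 first-3000 peaks of replicate 1 (18.4%, 13.3 to 24.5%) overlapped one of replicate 2. In the right arm it was 7 of 107 (6.54%, 2.67 to 13.0%). Replicate 2 gave 34 of 188 (18.1%, 12.9 to 24.3%) and 8 of 89 (8.99%, 3.96 to 16.9%). On this measure the left arm lay between, at 13.4% and 14.7%. With any row of the other list counted, the right arm of replicate 1 had 33.6% (24.8 to 43.4%), close to the 29.8% of its higher rows, whereas the centre had 57.7% beside 36.9% and the left arm 52.7% beside 30.4%. In replicate 2 the right arm had 44.9% beside 32.7%, the centre 52.1% beside 38.0% and the left arm 43.1% beside 35.2%. The density of peaks, which is higher in the centre, moves with these shares, and its part in them was not tested.

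Pairing each first-3000 peak with its best-ranked partner, where the choice was mutual, gave 52 pairs, 31 in the centre, 14 in the left arm and 7 in the right arm. Their midpoints lay a median of 138 bp apart, against 212 bp for the 886 pairs with both numbers above 3000. The 12 pairs with both peaks in the top class lay closer, at a median of 21.5 bp and at most 293 bp. They lay in the left arm, centre and right arm, but only between 844065 and 9819216, and 11 of the 12 overlapped a combined peak. The exception lay in the centre, at 6303200 to 6303703 in replicate 1 (number 188) and at 6302994 to 6303513 in replicate 2 (number 107), with midpoints 198 bp apart and no combined peak within 380599 bp. Of all 52 pairs, 13 overlapped a combined peak with at least 1 of their peaks, and 39 did not. Most pairs were thus missing from the combined list, but less often than first-3000 peaks as a whole. Of all first-3000 peaks on III, 6.19% in replicate 1 and 6.48% in replicate 2 overlapped a combined peak. Among matched pairs the 2 peak numbers ran together only loosely (rho = 0.35, n = 52).

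Seen from the combined list, 40 of 48 peaks overlapped a replicate 1 row (83.3%, 69.8 to 92.5%), beside 86.4% over all chromosomes, and 35 overlapped a replicate 2 row (72.9%, 58.2 to 84.7%), beside 78.3%. For the first 3000 the counts were 23 in replicate 1 (47.9%, 33.3 to 62.8%), beside 58.6%, and 19 in replicate 2 (39.6%, 25.8 to 54.7%), beside 49.0%. The interval on III includes the background value in each case. A first-3000 peak was present in both replicates at 13 combined peaks, in replicate 1 alone at 10, in replicate 2 alone at 6 and in neither at 19. The lists come from the same experiments and are not independent of each other.

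At 4 combined peaks neither replicate listed any row. The peak at 3356768 to 3356813 (q = 0.000492) was 46 bp wide and lay 102 bp and 194 bp from the nearest rows of replicates 1 and 2. The peak at 5835635 to 5835656 (q = 0.00902), 22 bp wide, lay 506 bp and 303 bp away. These 2 narrow peaks had rows close by. The peak at 931225 to 931829 (q = 0.00360) lay 7650 bp from a replicate 1 row and 636 bp from a replicate 2 row. The peak at 7446852 to 7447889 (q = 0.00524) was among the widest on III, at 1038 bp, yet lay 9782 bp and 6129 bp from any replicate row. It is the most isolated of the 4.

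Of the 16 combined peaks with a first-3000 peak in 1 replicate alone, 5 had one of the other replicate within 1 kb, and for the other 11 the nearest lay farther away. The gaps ran from 159 to 104964 bp, with a median of 7572 bp. The combined peak whose number differed most between replicates, at 4273528 to 4273951 (q = 1.53e-05), had replicate 1 number 102 and replicate 2 number 26730, but replicate 2 peak number 54 ended 159 bp away. The combined peak at 1925113 to 1925590 (q = 0.00763) had numbers 155 and 7926, and replicate 2 peak number 134 lay 7704 bp away. The peak at 2171923 to 2172249 (q = 0.000306) had number 4277 in replicate 1 and no row in replicate 2, yet replicate 2 peak number 73 began 332 bp to its right. At 4502757 to 4503064 (q = 2.69e-05), replicate 1 had number 131, and the nearest first-3000 peak of replicate 2, number 1435, lay 11604 bp away. The last 3 were singled out after their values were seen.

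Some combined peaks lay in clusters. Joining peaks with gaps of 10 kb or less gave 35 loci, of which 28 held 1 peak, 3 held 2 and 4 held 3 or more, so 20 of 48 peaks (41.7%) had a neighbour and 28 had none. The median spacing was 187 kb. First-3000 peaks, which are more numerous, formed 271 loci in replicate 1 and 246 in replicate 2, with 56.7% and 56.2% of peaks in loci of 2 or more. Of the 29 loci of 3 or more in replicate 1, 8 shared bases with such a locus of replicate 2 (27.6%), and of the 27 in replicate 2, 8 did (29.6%). Both replicates had 16 of these loci in the centre. No matching share was computed for smaller loci or for rows with higher numbers, so 27.6% and 29.6% cannot be called high or low.

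The locus of the strongest peak ran from 6887654 to 6904174 and held 4 combined peaks in 16.5 kb. Their q-values were 0.00791, 6.17e-59, 4.67e-06 and 1.39e-05 from left to right. Across the stretch from 6887522 to 6908668, which spans the first-3000 peaks of both lists there, each replicate had 9 of them. They lay mostly on different sides of the strongest peak. Replicate 1 had 6 to its right, among them numbers 97, 653 and 234, and 2 to its left. Replicate 2 had 6 to its left and 2 to its right. The left ones included numbers 110 and 282, at the weakest combined peak of the locus, which was number 12641 in replicate 1. Of the 9 replicate 1 peaks, 3 overlapped a first-3000 peak of replicate 2, beside 14.0% of all first-3000 peaks of replicate 1 on III. The stretch also held rows with higher numbers, 16 in replicate 1 and 10 in replicate 2. One of them, replicate 1 number 3414, lay to the left and overlapped replicate 2 number 323. The difference in sides is thus one of first-3000 peaks, and the part of the limit in it was not tested.

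The left-arm locus from 4272820 to 4281304 also held 4 combined peaks, with q-values of 6.69e-10, 1.53e-05, 4.17e-09 and 0.000172. Here the replicates matched better, with 7 first-3000 peaks each across 4272681 to 4285985, of which 5 of replicate 1 overlapped one of replicate 2. The right-hand combined peak, at 4281079 to 4281304, had number 807 in replicate 1 and number 45 in replicate 2, with midpoints of the matched pair 12 bp apart. A further pair, numbers 824 and 690, lay in the gap of this locus, 2204 bp from the nearest combined peak.

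The centre locus from 8652751 to 8658632 held 3 combined peaks with q-values of 0.00577, 3.62e-09 and 4.26e-11. The matched pairs at its strong peaks had midpoints 8 bp and 25 bp apart. The weak peak at its left end was 8 bp wide and had number 709 in replicate 2 and 23826 in replicate 1. The locus from 5835635 to 5839743 held 3 combined peaks with q-values of 0.00902, 0.000193 and 0.00136. Its middle peak was covered by a pair of overlapping peaks in each replicate, numbers 85 and 91 in replicate 1 and numbers 125 and 184 in replicate 2.

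The stretch with the most first-3000 peaks had no combined peak. From 7356780 to 7400331, a stretch of 43.6 kb in the centre that was picked after its values were seen, replicate 1 had 15 first-3000 peaks and replicate 2 had 12. That is 3.57% and 3.11% of their first-3000 peaks on III in 0.316% of its span. Of the 33 rows each list had there, 45.5% and 36.4% were among the first 3000, beside 9.88% and 9.61% over III. The best were numbers 144, 181 and 281 in replicate 1 and numbers 48, 123 and 377 in replicate 2. Of the replicate 1 peaks, 7 overlapped a first-3000 peak of replicate 2, and 6 mutual pairs had midpoints a median of 35.5 bp apart. The nearest combined peak lay 46520 bp away and was the isolated one at 7446852. RefSeq's table for WBcel235 puts mml-1 itself at a numerically similar position on III, within the limits of this stretch. Positions were not converted between builds, so whether the stretch holds mml-1 was not tested. Reads from transgene copies of mml-1 cannot be told apart here from reads of the chromosome.

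**Figure D5:**
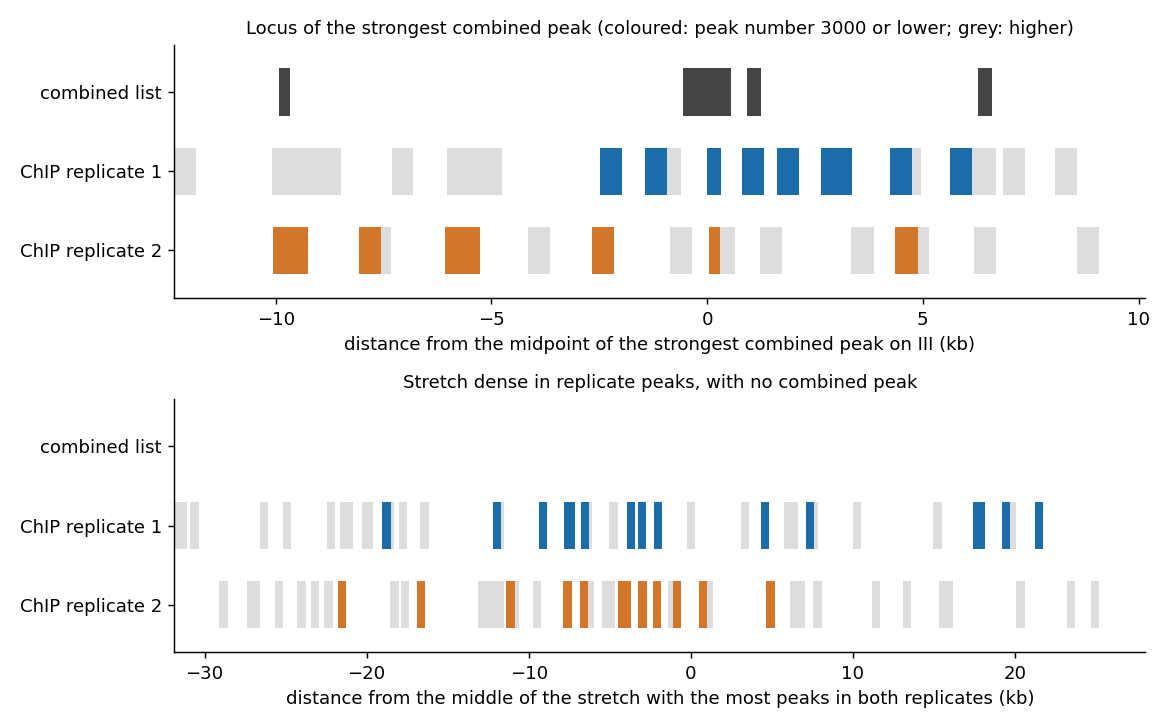
Peaks of the 3 lists across the locus of the strongest combined peak on III (upper panel) and across the 43.6 kb stretch with the most first-3000 peaks in both replicates (lower panel), as distance in kb; replicate peaks numbered 3000 or lower are coloured and those with higher numbers are grey, and overlapping peaks merge in the drawing. The upper locus holds 4 combined peaks and 9 first-3000 peaks per replicate, and the lower stretch holds 15 and 12 first-3000 peaks and an empty row for the combined list.

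Other stretches held first-3000 peaks mainly from 1 replicate. From 7724581 to 7769212, replicate 2 had 10 first-3000 peaks, numbers 546 to 2959, and replicate 1 had 2, numbers 163 and 872, with no combined peak. From 8287183 to 8301315, replicate 2 had 5 and replicate 1 had 1. From 6302994 to 6339883 the counts were 5 and 1. In the other direction, replicate 1 had 5 first-3000 peaks from 833637 to 849552, around the strong left-arm region, where replicate 2 had only its number 17. From 9815104 to 9829116 it had 5 against 2. Rows with higher numbers lay in all these stretches in both lists. In the order named, replicates 1 and 2 had 17 and 20, 3 and 9, 13 and 14, 6 and 7, and 5 and 7 of them. The contrast is thus one of first-3000 peaks, and the part of the limit in it was not tested.

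Most of the top-class replicate peaks on III were absent from the combined list. Of the 59 top-class peaks in replicate 1, 38 overlapped no combined peak, and 34 of the 50 in replicate 2 did not. Absence was still less common here than in lower ranks. A combined peak was overlapped by 35.6% and 32.0% of the top class, beside 6.19% and 6.48% of all first-3000 peaks on III. Of the 38, 8 overlapped a first-3000 peak of replicate 2 (21.1%), beside 14.0% of all first-3000 peaks and 33.9% of the top class. Another 14 overlapped no replicate 2 row (36.8%), beside 209 of all 420 (49.8%). Of the 34, 9 overlapped a first-3000 peak of replicate 1 (26.5%), beside 15.0% of all first-3000 peaks and 44.0% of the top class. Another 16 overlapped no replicate 1 row (47.1%), beside 201 of all 386 (52.1%). In the whole top class, 72.9% and 68.0% overlapped a row of the other list. The top-class peaks without a combined peak were thus shared less often than their class. The best-ranked of them in replicate 1 was number 138, at 6448303 to 6448806, which overlapped no replicate 2 row and lay 438847 bp from a combined peak. Number 154, at 1604553 to 1605056, also had no counterpart. Number 163, at 7730670 to 7731173, overlapped replicate 2 number 2701, and number 168, at 4475075 to 4475578, overlapped number 12215. The 16 III peaks of replicate 1 from number 9 to number 134 all overlapped a combined peak.

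In replicate 2 such peaks stood higher in the list, after the first 6 III peaks, numbers 10 to 45. Scores on III were tied up to number 259 in replicate 1 and 427 in replicate 2, so this is a difference in list order. Number 48 of replicate 2, at 7374087 to 7374606 in the dense stretch, overlapped replicate 1 number 1707. Number 51, at 6170318 to 6170837, overlapped replicate 1 number 2373 and lay 247923 bp from a combined peak. Number 72, at 8119662 to 8120181, overlapped number 7612, and number 73, at 2172582 to 2173101, overlapped none. Number 122, at 5147093 to 5147612, overlapped number 20913. Further ones without any replicate 1 row were number 134 at 1916889 to 1917408, number 135 at 6216154 to 6216673 and number 138 at 3785252 to 3785771. The remaining ones in both lists, numbered up to 393 in replicate 1 and up to 391 in replicate 2, were spread over all parts of III.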

How the data were processed

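ChIP-seq peaks of MML-1 were taken from 3 lists on the build WormBase WS220, per the file headers. The combined list names PeakSeq as its source, per its source column, and its deposited values are q-values. The replicate lists name spp_via_IDR, and their deposited values are a score whose scale is not given, with a peak number that ranks the rows. For control, versions, filters and any pooling, the details were not given in the sources used here. The lists give no read counts, so depth is unknown, and for the input samples no values entered the work.

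Rows on III were selected by position and peak number. Overlap means 1 bp or more on III, the smallest overlapping peak number is the match, a peak is placed by its midpoint, and loci join peaks with gaps of 10 kb or less. Shares carry exact Clopper-Pearson 95% intervals. No test across peaks was run, because peaks cluster and rank chose them. The overlap code was tested on simulated data: in 20 of 20 pairs of lists it found all 150 planted overlaps. Alternatives covered the overlap, the rank limit, the arms, the bins, the gap and the match.

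The members, lists and rules were chosen with earlier results of these data known. The text names the 10 combined peaks on III with the smallest q-values, loci of 3 or more, peaks without any replicate row, leading replicate peaks, extreme bins and the peak whose number differed most. The rule also covers the 72 top-class replicate peaks (numbered 396 or lower, the length of the combined list) without a combined peak, of which the text names some of the best-ranked and counts the rest, a shortening made after they were seen. The work was done in Python 3.11.15, with scipy 1.17.1 for intervals and correlations, pandas 2.3.3 and numpy 2.4.6 for tables, and matplotlib 3.10.9 for figures.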

Additional observations from a re-analysis of the deposited data

How the results depend on the processing

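Of 37 values recomputed under alternatives, 19 stayed within the error of the reported value (the exact interval of a share, or 1 SD between replicates) and 18 did not. A 50% reciprocal overlap lowered the share of combined peaks found in replicates 1 and 2 to 47.9% and 31.2%, and that of first-3000 peaks found in the other replicate to 29.8% and 32.4%; the cause was not tested. Combined peaks found among peaks numbered 3000 or lower were 47.9% and 39.6%, and 43.8% and 35.4% at 1500 or lower. The stronger combined peaks, 24 by q-value, were found at 95.8% in replicate 1 and at 75% in replicate 2, there within the error. A limit of 1500 raised the shared part of replicate 1 to 59.9% and one of 6000 lowered it to 43.8%. In replicate 2 these limits gave 50.3% and 45.7%, both within the error. The centre share of first-3000 peaks became 52.7% at 1500 and 46.9% at 6000. A central 50% of the span held 68.8% of combined and 66.8% of first-3000 peaks, since the window is wider. Counting loci within 10 kb once gave 41.6%, and leaving out loci of 5 or more peaks gave 44.3%, both chosen after seeing the data. A gap of 5 kb left 27.1% of combined peaks with a neighbour. Leaving out each ChIP replicate gave centre shares of 47.9% to 48.7% and top bin densities of 49 to 53 per Mb. No paired analysis was possible because only the ChIP samples have lists, and no values of the equally numbered inputs were analysed here. Depth is unknown, so a peak absent from a list cannot be called unbound.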
